A study of Rattus norvegicus with 6 samples.

Results

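The SR proteins and hnRNP splicing factors described here are the genes that encode the numbered SR proteins (Srsf), the hnRNP proteins (Hnrnp), the SR-related proteins Tra2a, Tra2b, Srrm1 and Srrm2, the polypyrimidine tract binding proteins Ptbp1 and Ptbp2, and the muscle and tissue-type regulators Rbm20, Rbm24, Celf1, Mbnl1, Mbnl2 and Rbfox2. They were picked by symbol and numbered 43 of the 40456 genes in the table. Of these, 41 passed the filter on low counts and were tested. Srsf8 and Srsf12 did not pass, with at most 2 counts in any library, and enter only the summed levels and the promoter comparison. The libraries came from H9c2, a rat cardiomyoblast line labelled WT in genotype and differentiated for 5 days in low serum with 1 µM retinoic acid. A locked nucleic acid gapmer, an oligonucleotide that marks the RNA it pairs with for cleavage by RNase H, was transfected into both groups at 25 nM for the 24 h before harvest. The 3 control libraries received a negative control gapmer and the 3 knockdown libraries a gapmer against Tug1, a long non-coding RNA, so that lipid transfection and a gapmer were common to all 6. A single sequence was used against Tug1, and the labels do not say whether the 3 libraries of a group came from separate cultures, so p-values measure the spread between these libraries.

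SR proteins bind exonic enhancers through RNA recognition motifs and recruit the spliceosome through domains rich in arginine and serine. The hnRNP proteins coat nascent transcripts and often oppose exon inclusion, and PTB proteins repress exons next to pyrimidine-rich tracts. In muscle, RBFOX, MBNL, CELF, RBM20 and RBM24 proteins set the switch from fetal to adult isoforms, and PTBP1 holds back many muscle exons. Many SR and hnRNP genes also control their own level by splicing in an exon that sends the transcript to nonsense-mediated decay. The deposited counts are per gene, so neither such exons nor isoforms of any target can be seen in them.

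The gapmers are shown because they define the only contrast of the study. Each is written 5′ to 3′ as given in the labels, and they carry the same base at 6 of 16 positions, counted from the 5′ end.
Tug1 gapmer: attcagtagacagcta
Negative control gapmer: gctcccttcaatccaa

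Total counts ran from 12978548 to 13544337 per library. Tug1 was at 54.6, 51.9 and 55.3 CPM (counts scaled to library size with TMM factors) in the control libraries and at 11.9, 11.2 and 12.4 CPM in the knockdown libraries, or 22.0% of the control mean. Calls were common in this comparison: with edgeR's quasi-likelihood test and a threshold of 0.05 on the adjusted p, 61.7% of the 14216 genes tested differed, 30.8% upward and 30.9% downward after the Tug1 gapmer. The labels call the cells cardiomyocytes, but of 12 cardiac markers Myh6, Myh7, Nkx2-5 and Ryr2 did not exceed 3 counts in any library. Tnni3, Myl7, Nppa and Myl3 reached at most 4 counts and were not tested. The cardiac sum, mostly Tnnt2, was 350 to 382 CPM in the controls and 403 to 453 CPM after the Tug1 gapmer. All 10 skeletal muscle markers exceeded 3 counts, with a summed level of 936 to 951 CPM in the controls and 1390 to 1480 CPM after the Tug1 gapmer. The 5 fibroblast markers, mostly collagens, summed to 42700 to 44100 CPM and 40000 to 42900 CPM. The sums of 4 markers each were 2.55 to 3.70 and 2.07 to 3.11 CPM for endothelium (Pecam1, Cdh5 and Kdr at or under 3 counts). For immune cells they were 3.45 to 5.18 and 7.02 to 8.71 CPM (mostly Cd68, with Ptprc at 0). For epithelium they were 76.9 to 89.2 and 52.8 to 57.1 CPM (almost all Krt8).

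Splicing factor transcripts shifted moderately and in both directions. Of the 41 tested members, 27 (65.9%) passed that test, close to the 61.7% of all tested genes. Of these, 10 rose and 17 fell, or 24.4% and 41.5% of the members, against 30.8% and 30.9% of all genes. The changes were small: 0 members reached an absolute log2 fold change of 1, which 9.8% of all genes passed as called changes, and 5 members reached 0.5, or 12.2% against 31.0% of all genes. The median absolute log2 fold change of the called members was 0.36, against 0.50 over all called genes. These comparisons of size were not limited to genes of similar level. The 3 values of each group did not overlap for 27 members (65.9%, against 65.6% of all genes). The median log2 fold change over the members was -0.04, against 0.00 over all tested genes. With library totals the members' median was 0.01 and that of all tested genes 0.06, so the sign of the members' median followed a shift common to all genes, and it lay below the all-gene median under both scalings.

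**Figure D1:**
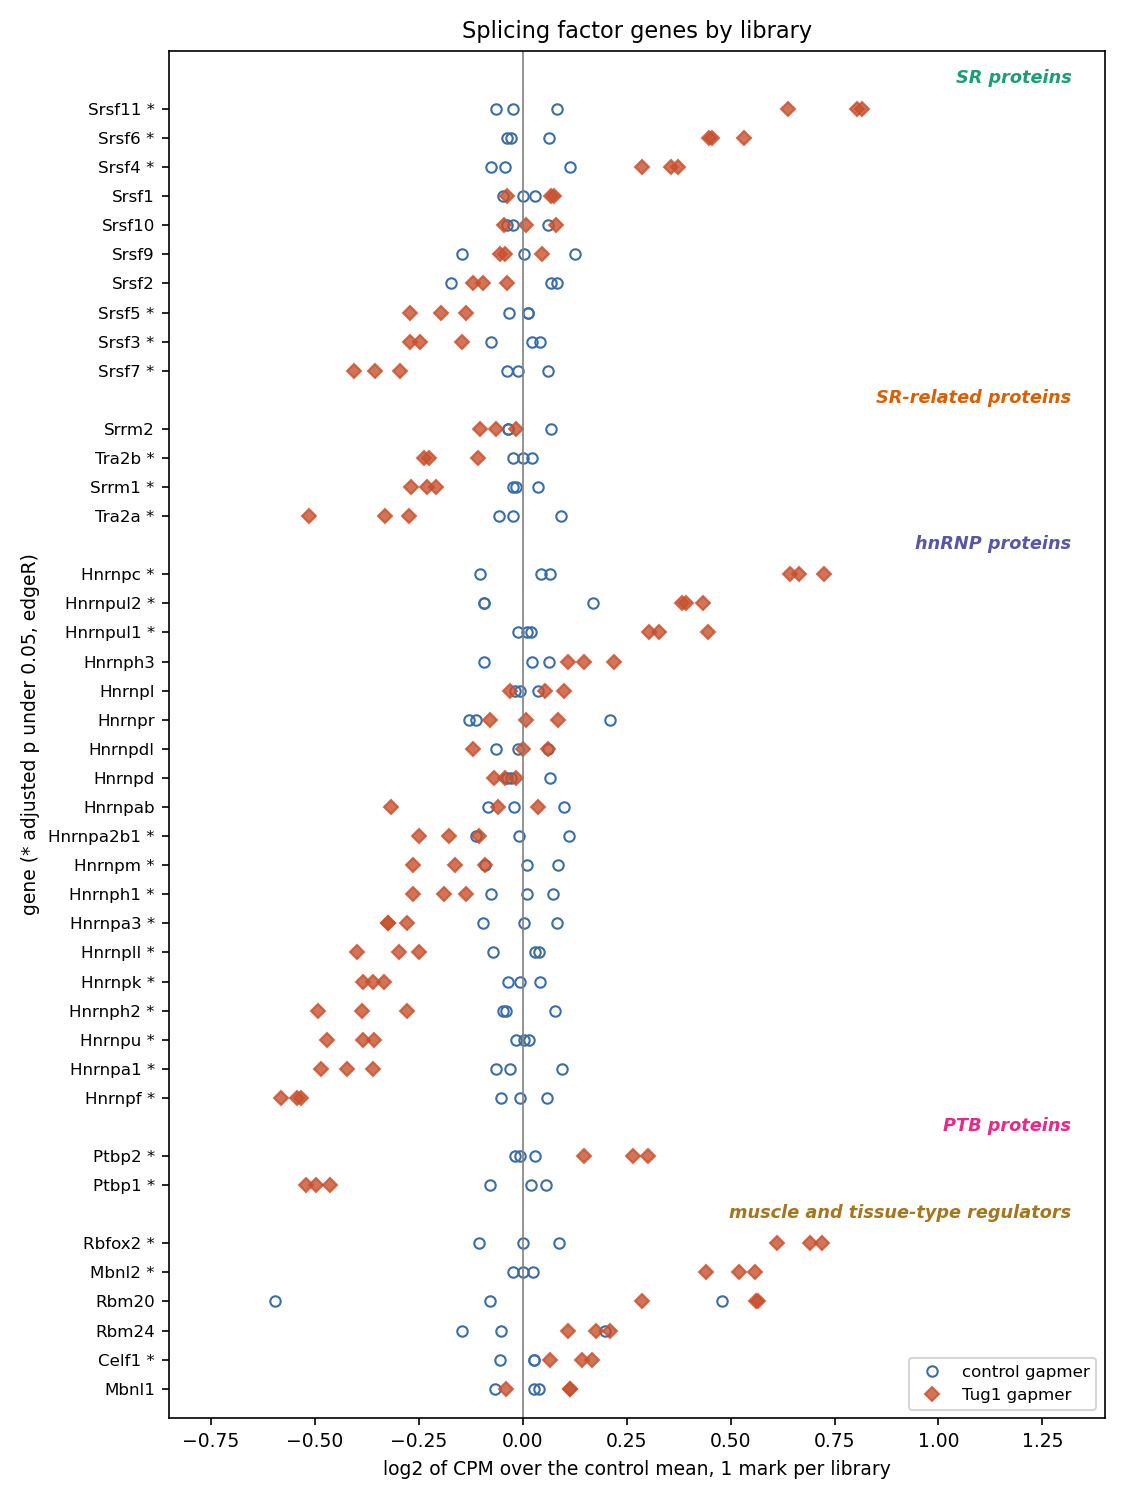
The 41 tested members by role, each with the log2 of its CPM over its own control mean in the 3 control gapmer libraries (open circles) and the 3 Tug1 gapmer libraries (diamonds); an asterisk marks an adjusted p under 0.05 in edgeR's quasi-likelihood test. Srsf11, Rbfox2 and Hnrnpc lie furthest to the right and Hnrnpf and Ptbp1 furthest to the left, while members such as Srsf1, Srsf10 and Hnrnpd overlap the control libraries.

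**Figure D2:**
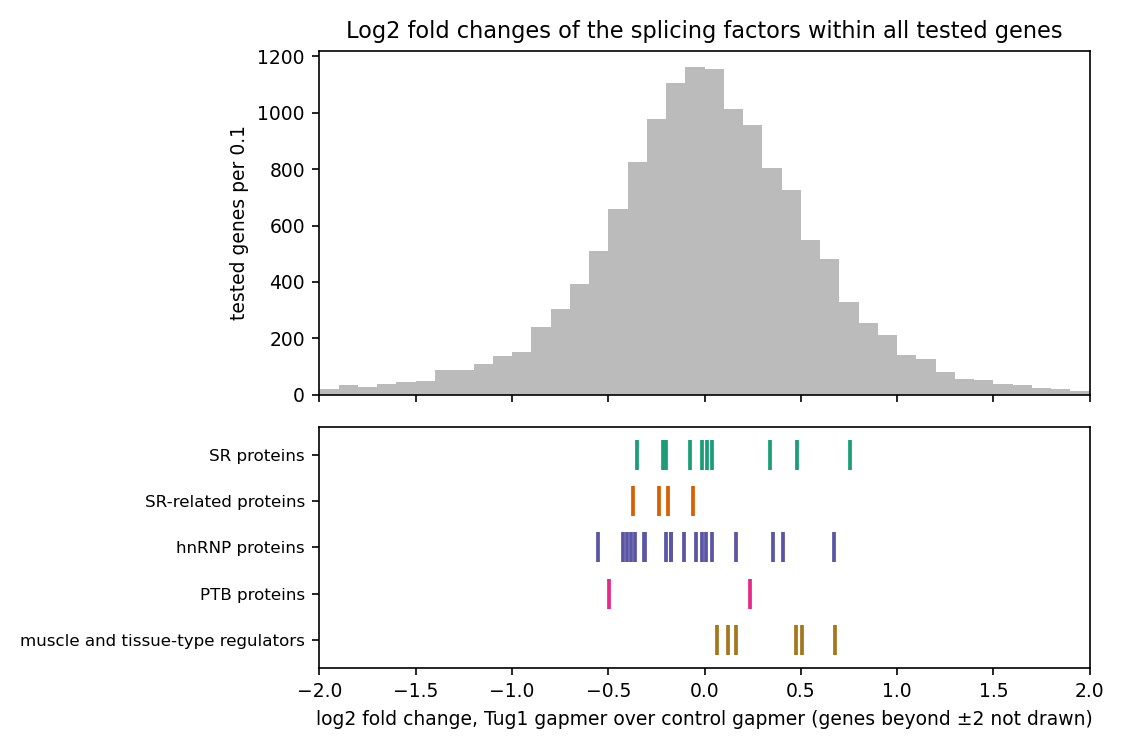
The upper panel is a histogram of the log2 fold changes of the tested genes within ±2, and the lower panel has 1 tick for each tested member by role. The members span -0.55 to 0.76, within the broad middle of the distribution.

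Of 10 tested SR genes, 3 rose and 3 fell, and the other 4 did not pass. These shares, 30.0% in each direction, were near the 30.8% and 30.9% over all tested genes. Srsf11, whose arginine- and serine-rich product binds splicing factors at both ends of the intron, was at 77.6, 70.1 and 72.1 CPM in the controls and at 128, 114 and 129 CPM after the Tug1 gapmer. Every knockdown library was above every control library, and the rise was the largest of any member (log2 fold change 0.76, SE 0.0600, edgeR adjusted p 2.23e-10).

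Srsf4, Srsf5 and Srsf6 encode related SR proteins with a pair of RNA recognition motifs and long serine-rich tails, but they did not move together. Srsf6 was at 166, 155 and 156 CPM in the controls and at 230, 217 and 218 CPM after the Tug1 gapmer. Srsf4 was at 38.4, 43.8 and 39.3 CPM against 51.9, 52.5 and 49.4 CPM. Both rose with no overlap between the groups, with fitted log2 values of 0.48 (SE 0.0481, edgeR adjusted p 1.09e-08) and 0.34 (SE 0.0668, edgeR adjusted p 1.23e-04). Srsf5 fell instead, from 223, 216 and 223 CPM to 201, 183 and 193 CPM. The drop was -0.20 on the log2 scale (SE 0.0475, edgeR adjusted p 9.13e-04), and with a correction for genomic length described below it was -0.09 and did not pass (adjusted p 0.0946).

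Srsf3 and Srsf7 encode related SR proteins that also act in mRNA export and in the choice of polyadenylation site, and both fell. Srsf7 was at 123, 117 and 115 CPM in the controls and at 92.3, 96.2 and 89.0 CPM after the Tug1 gapmer (log2 fold change -0.35, SE 0.0530, edgeR adjusted p 4.31e-06). Srsf3 was at 136, 127 and 138 CPM against 121, 111 and 113 CPM (log2 fold change -0.22, SE 0.0535, edgeR adjusted p 0.00130). Neither gene's groups overlapped, and the lower level was the knockdown level in all 3 libraries of both genes.

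Srsf1 and Srsf2, which encode the SR proteins first purified as essential splicing activities, did not pass the test. Srsf1 was at 189 ± 4.85 CPM (SD, n = 3) in the controls and at 193 ± 8.27 CPM after the Tug1 gapmer. Srsf2 was at 108, 107 and 90.5 CPM against 99.4, 95.4 and 93.9 CPM. Control replicate 3 stood below all 3 knockdown libraries, and without that library Srsf2 passed as lower (-0.15, edgeR adjusted p 0.0278). Srsf9, a close relative of Srsf1, and Srsf10, a repressor when it is dephosphorylated, had log2 fold changes of -0.02 (SE 0.0745) and 0.01 (SE 0.0546). With the length correction Srsf1 passed as higher (0.15, edgeR adjusted p 0.00869).

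Among the 4 SR-related genes, 3 fell and 0 rose, in a comparison where 30.9% of all tested genes fell. Tra2a and Tra2b encode the transformer-2 proteins, which activate exons with purine-rich enhancers. Tra2a was at 173, 177 and 192 CPM in the controls and at 143, 126 and 149 CPM after the Tug1 gapmer (log2 fold change -0.37, SE 0.0587, edgeR adjusted p 8.02e-06). Tra2b was at 127, 125 and 123 CPM against 107, 106 and 116 CPM (log2 fold change -0.19, SE 0.0523, edgeR adjusted p 0.00339). Both fell without overlap, Tra2a to 77.2% and Tra2b to 87.8% of the control mean. Srrm1, a co-activator that bridges SR proteins and snRNPs and is part of complexes left at exon junctions, was at 86.7, 83.1 and 83.6 CPM against 70.1, 73.1 and 72.0 CPM (log2 fold change -0.24, SE 0.0538, edgeR adjusted p 6.08e-04). Srrm2, a scaffold of nuclear speckles, was at 468, 503 and 468 CPM against 447, 475 and 459 CPM. Its groups overlapped and it did not pass (log2 fold change -0.06, SE 0.0445, edgeR adjusted p 0.262).

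The hnRNP genes leaned downward. Of 19 tested, 10 fell (52.6%, against 30.9% of all genes) and 3 rose (15.8%, against 30.8%), with a median log2 fold change of -0.18. With library totals and with the length correction, 9 fell and 4 rose. How reads shared with related genes and with processed pseudogenes, of which Hnrnpa1 has many, were counted was not stated, so single hnRNP values are uncertain to that extent.

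Hnrnpf, whose product binds runs of guanines and regulates nearby exons, fell furthest of all members. It was at 480, 465 and 502 CPM in the controls and at 322, 331 and 333 CPM after the Tug1 gapmer, 68.2% of the control mean (log2 fold change -0.55, SE 0.0439, edgeR adjusted p 2.34e-10). The knockdown libraries were tightly grouped and far below the controls. Of its relatives with similar binding domains, Hnrnph2 fell by 0.38 on the log2 scale (SE 0.0559). Hnrnph1 was at 163, 147 and 156 CPM against 136, 129 and 141 CPM and fell by 0.20 on the log2 scale (SE 0.0528). Hnrnph3 was at 34.9, 31.3 and 33.9 CPM against 38.9, 36.0 and 37.0 CPM, a difference of 0.16 on the log2 scale (SE 0.0713) that did not pass (edgeR adjusted p 0.0543) despite groups that did not overlap. Hnrnph3 passed as higher with the length correction (0.30, adjusted p 7.77e-04), with library totals (0.21, adjusted p 0.0131) and without Tug1 replicate 2 (0.19, adjusted p 0.0487).

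The A/B hnRNP genes Hnrnpa1, Hnrnpa2b1 and Hnrnpa3, which encode abundant packaging proteins that often silence exons, fell. Hnrnpa1 was at 274, 268 and 299 CPM in the controls and at 218, 200 and 209 CPM after the Tug1 gapmer (log2 fold change -0.42, SE 0.0505, edgeR adjusted p 1.57e-07). Hnrnpa3 fell to 80.8% of the control mean (log2 fold change -0.31, SE 0.0474). Hnrnpa2b1 was at 568, 529 and 618 CPM against 532, 481 and 506 CPM. It passed as lower (log2 fold change -0.18, SE 0.0518, edgeR adjusted p 0.00545), but its second control library was below the first knockdown library. Hnrnpa2b1 did not pass with the length correction (-0.08, edgeR adjusted p 0.203) or without control replicate 3 (-0.11, edgeR adjusted p 0.0670).

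Hnrnpu and Hnrnpk, among the members with the most counts, fell in every knockdown library. Hnrnpu, a nuclear matrix protein that binds RNA and chromatin, was at 618, 626 and 632 CPM in the controls and at 488, 451 and 479 CPM after the Tug1 gapmer (log2 fold change -0.40, SE 0.0430, edgeR adjusted p 2.87e-08). Hnrnpk, which binds cytosine-rich sequences and acts in splicing, transcription and translation, was at 586, 575 and 606 CPM against 467, 451 and 459 CPM (log2 fold change -0.36, SE 0.0419, edgeR adjusted p 1.08e-07). Both fell by far more than the spread within either group. Hnrnpll, known from splicing switches in lymphocytes, was at 80.4% of the control mean (log2 fold change -0.31, SE 0.0585), and Hnrnpm was at 88.5% (-0.18, SE 0.0566). Hnrnpm did not pass with library totals (-0.12, edgeR adjusted p 0.0657), without Tug1 replicate 2 (-0.13, 0.0693) or without control replicate 3 (-0.13, 0.0666).

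Hnrnpc rose against this lean. Its product binds uridine tracts, competes with U2AF at cryptic splice sites and helps to sort transcripts for export by length. It was at 136, 121 and 134 CPM in the controls and at 215, 206 and 203 CPM after the Tug1 gapmer, 159% of the control mean (log2 fold change 0.67, SE 0.0517, edgeR adjusted p 1.43e-10). The other risers were the Hnrnpu relatives Hnrnpul1 and Hnrnpul2, which are also known from the DNA damage response. Hnrnpul1 was at 143, 142 and 140 CPM against 192, 177 and 174 CPM (log2 fold change 0.36, SE 0.0503). Hnrnpul2 was at 120, 120 and 144 CPM against 167, 168 and 173 CPM (log2 fold change 0.41, SE 0.0597). Control replicate 3 of Hnrnpul2 was high, but it stayed below every knockdown library.

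The other hnRNP genes did not pass and had absolute log2 fold changes up to 0.11. Hnrnpl, which binds CA repeats, was at 238 ± 4.82 CPM in the controls and at 245 ± 10.9 CPM after the Tug1 gapmer (SD, n = 3). Hnrnpd and Hnrnpdl, AU-rich element binding proteins that also bear on mRNA decay, had log2 fold changes of -0.04 (SE 0.0546) and -0.01 (SE 0.0550). Hnrnpr, a partner of the SMN protein, and Hnrnpab were at 36.3 ± 5.00 and 19.8 ± 1.26 CPM in the controls (SD, n = 3). Their log2 fold changes were 0.01 (SE 0.0839) and -0.11 (SE 0.0982).

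The PTB proteins moved apart. Ptbp1, the general repressor of neuronal and muscle exons, was at 361, 370 and 337 CPM in the controls and at 258, 248 and 252 CPM after the Tug1 gapmer, 71.0% of the control mean (log2 fold change -0.49, SE 0.0461, edgeR adjusted p 3.35e-09). Ptbp2, its relative that takes over early in neuronal differentiation, was at 23.2, 23.8 and 23.0 CPM against 28.7, 28.0 and 25.8 CPM (log2 fold change 0.24, SE 0.0787, edgeR adjusted p 0.0120). The groups did not overlap for either gene. The rise of Ptbp2 did not pass without Tug1 replicate 1 (0.21, edgeR adjusted p 0.0528) or with the length correction (0.12, edgeR adjusted p 0.197).

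All 6 muscle and tissue-type regulators had positive log2 fold changes, from 0.07 to 0.68, and 3 of them passed. That was 50.0%, all higher, against 61.7% of all tested genes called and 30.8% called higher. Rbfox2, which binds GCAUG elements and activates exons that lie upstream of the sites it binds, was at 127, 118 and 135 CPM in the controls and at 194, 205 and 209 CPM after the Tug1 gapmer, 160% of the control mean (log2 fold change 0.68, SE 0.0535, edgeR adjusted p 2.14e-10). Mbnl2, a muscleblind protein, was at 79.4, 78.1 and 76.8 CPM against 115, 106 and 112 CPM (log2 fold change 0.51, SE 0.0533, edgeR adjusted p 2.30e-08). Both rose with wide gaps between the groups. Celf1, which opposes muscleblind proteins in heart development, was at 108, 102 and 108 CPM against 119, 111 and 117 CPM (log2 fold change 0.12, SE 0.0524, edgeR adjusted p 0.0472). That call was lost in 9 of 13 alternatives, and DESeq2's Wald test gave 0.12 with an adjusted p of 0.0830.

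Mbnl1, the main muscleblind gene of muscle, was at 111, 104 and 112 CPM in the controls and at 118, 106 and 118 CPM after the Tug1 gapmer and did not pass (log2 fold change 0.07, SE 0.0557). Rbm24, which stabilizes and splices muscle transcripts, was at 13.2, 10.4 and 11.1 CPM in the controls and at 12.4, 13.0 and 13.3 CPM after the Tug1 gapmer and did not pass (log2 fold change 0.16, SE 0.114). Rbm20, the titin splicing regulator of the heart, was near the lower limit of the table with 26, 18 and 38 counts in the controls and 43, 42 and 34 counts after the Tug1 gapmer. Its groups overlapped and it did not pass (log2 fold change 0.48, SE 0.256, edgeR adjusted p 0.113), although without control replicate 3 it did (0.79, edgeR adjusted p 0.0221). In the same libraries 8 of 10 skeletal muscle markers rose past an adjusted p of 0.05 in edgeR's test. That compares with 30.8% of all tested genes called higher. Myog was at a log2 fold change of 0.82, while Myod1, at -0.32, was called lower. The part of the shift in skeletal muscle markers in the values of the muscle regulators was not tested.

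Several of the tissue-type regulators are long genes, and log2 fold changes rose with genomic length in these libraries. Spearman's rho between genomic length and log2 fold change was 0.27 across 12837 tested genes and 0.35 across the 41 members, as a description across genes that share the same libraries. Between mean CPM and log2 fold change, rho was -0.06 across all tested genes and -0.39 across the members, and no correction for level was made. A correction that removed each library's trend on genomic length lowered Rbfox2 to 0.34 (SE 0.0473, edgeR adjusted p 2.12e-06) and Mbnl2 to 0.23 (SE 0.0526, edgeR adjusted p 5.89e-04), both still called higher. Celf1 went to -0.02 and Mbnl1 to -0.23, called lower (edgeR adjusted p 7.49e-04). Rbm20 (0.14, SE 0.251) and Rbm24 (0.23, SE 0.114) stayed positive and did not pass. With the correction 4 of the 6 regulators were thus positive, against 6 without it. Srsf11 (0.75), Hnrnpc (0.65) and Hnrnpf (-0.53) hardly moved, and Srsf6 went up to 0.61. Ptbp1 stayed lower at -0.41 (SE 0.0430, edgeR adjusted p 2.94e-08).

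**Figure D3:**
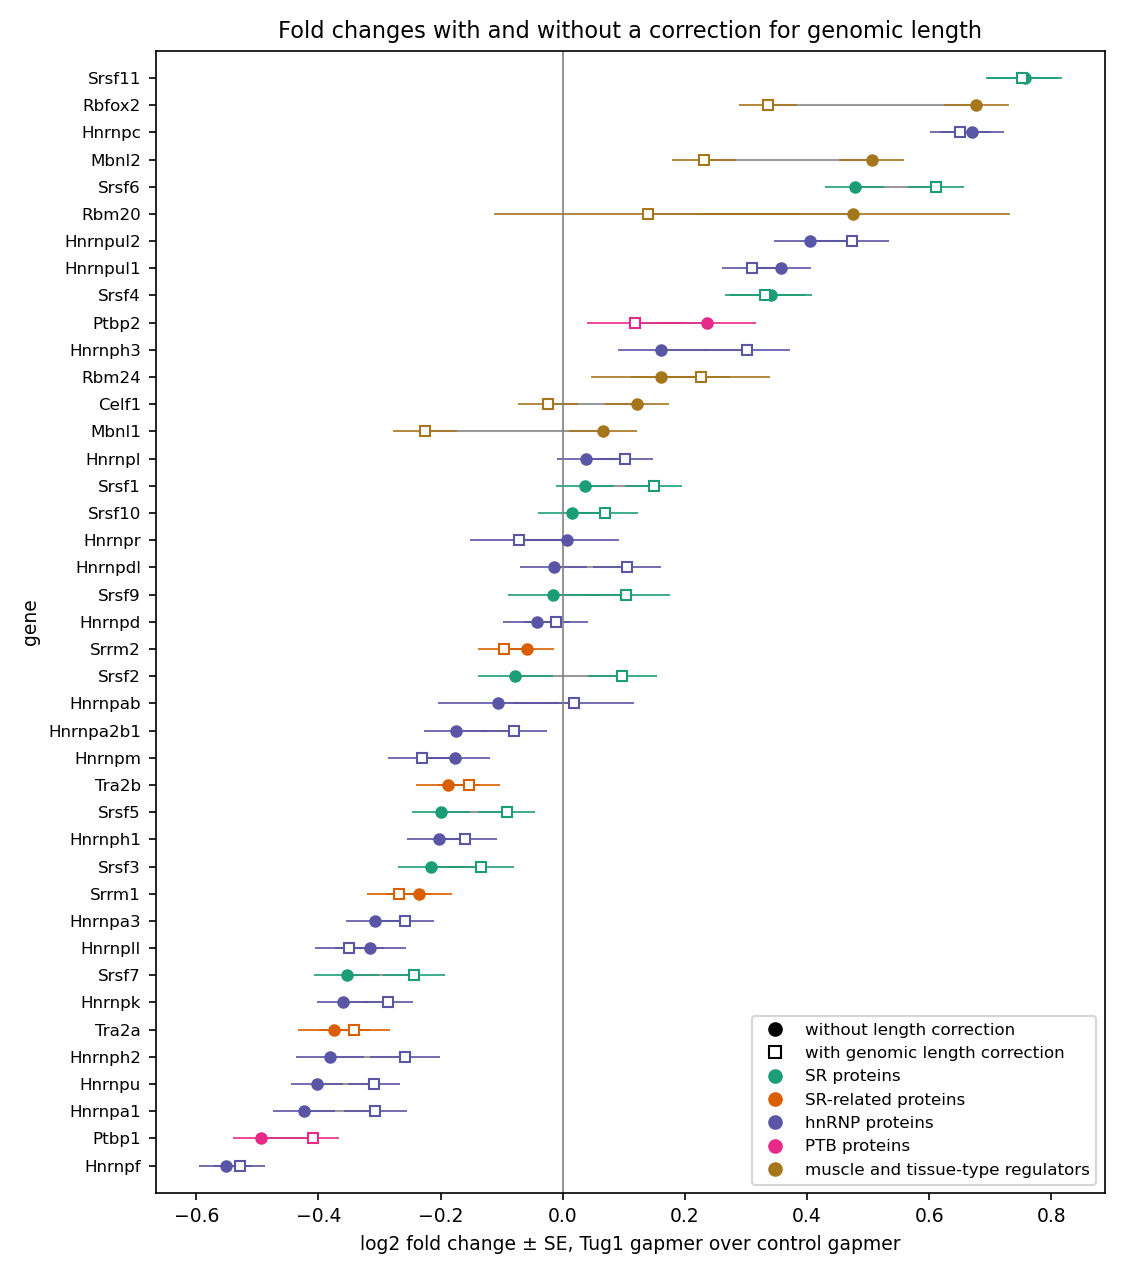
Log2 fold changes with SE of the 41 tested members, without (filled circles) and with (open squares) the correction for genomic length, coloured by role. Rbfox2 moves from 0.68 to 0.34 and Mbnl1 from 0.07 to -0.23, whereas Srsf11 stays at 0.76 and 0.75.

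Related genes were also compared by the ratio of their counts within each library, which does not depend on how libraries are scaled. Of 20 pairs, 13 had ratios that did not overlap between the groups. Among single genes, the groups did not overlap for 65.6% of all tested genes, and ratios of other gene pairs were not taken. With 3 libraries against 3 the smallest p of the exact permutation test (two-sided) is 0.1, and adjusted over the 20 pairs it was 0.154, so no pair could pass. The log2 ratio of Hnrnpu to Hnrnpul1 was 2.11, 2.14 and 2.18 in the controls and 1.34, 1.35 and 1.46 after the Tug1 gapmer. The log2 ratio of Ptbp1 to Ptbp2 went from 3.93 ± 0.0499 to 3.20 ± 0.0748 (SD, n = 3). That of Srsf5 to Srsf6 was 0.43, 0.48 and 0.52 in the controls and -0.20, -0.24 and -0.18 after the Tug1 gapmer. Srsf5 thus had more counts than Srsf6 in each control library and fewer in each knockdown library.

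The log2 ratio of Srsf4 to Srsf5 went up by 0.54, and those of Mbnl1 to Mbnl2 and Hnrnph1 to Hnrnph3 went down by a difference of -0.44 and -0.36. Over all tested genes 30.8% were called higher and 30.9% lower, and how often pairs of other genes had opposite calls was not counted. In 4 of the 20 pairs the members were called in opposite directions by edgeR's test: Hnrnpu and Hnrnpul1, Ptbp1 and Ptbp2, Srsf5 with Srsf6, and Srsf5 with Srsf4. With the length correction Srsf5 and Ptbp2 were not called, which leaves opposite calls in 1 of these pairs, Hnrnpu and Hnrnpul1. The same correction gave opposite calls in other compared pairs: Hnrnph1 lower (-0.16) with Hnrnph3 higher (0.30), and Mbnl1 lower (-0.23) with Mbnl2 higher (0.23). Other ratios differed little, with Hnrnpd to Hnrnpdl at -0.75 ± 0.0898 and -0.77 ± 0.0898 (SD, n = 3) and Srsf1 to Srsf9 at 2.33 ± 0.153 and 2.38 ± 0.0511. Each of the 6 largest differences kept its sign when any library was left out. Since the groups of these 6 pairs did not overlap, no other outcome was possible.

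**Figure D4:**
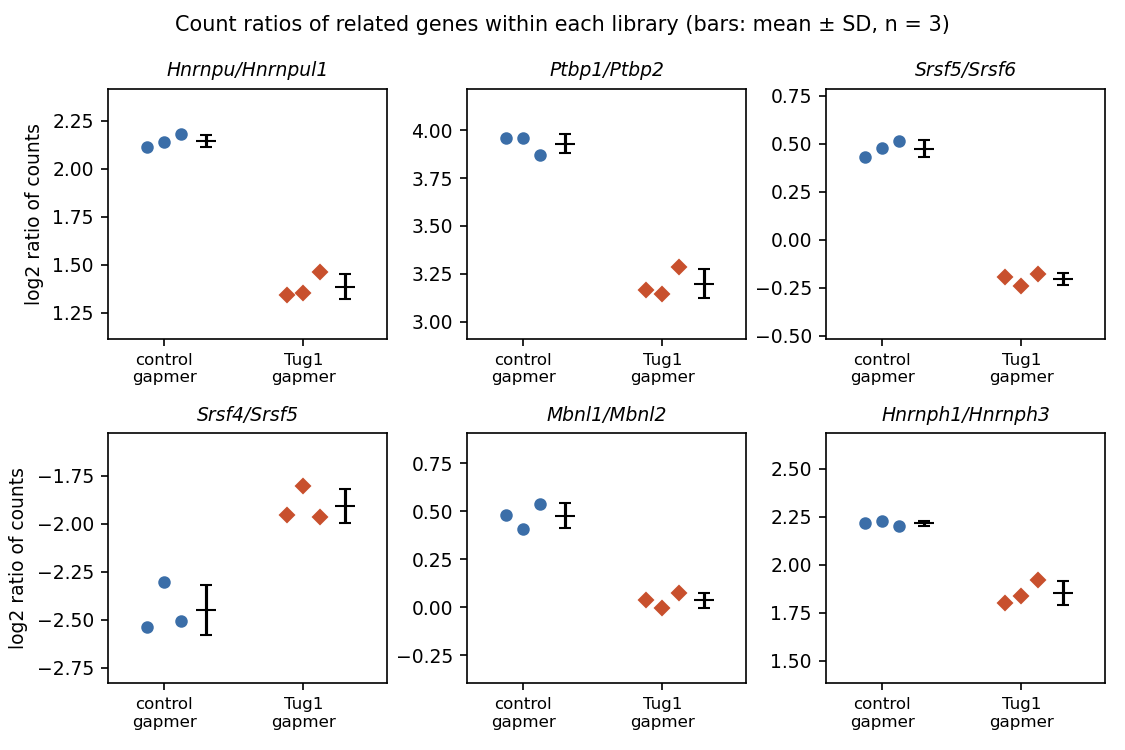
Log2 ratio of the counts of related splicing factor genes within each library, for the 6 pairs with the largest difference, with control gapmer libraries as circles, Tug1 gapmer libraries as diamonds and mean ± SD as bars (n = 3; all panels span the same range on the log2 scale). The groups are apart in all 6 pairs, and Srsf5/Srsf6 crosses 0.

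Summed over genes, the members held 7297, 7123 and 7439 CPM in the controls and 6848, 6512 and 6735 CPM after the Tug1 gapmer, 91.9% of the control mean. The hnRNP genes made up most of this sum and went from 4421, 4270 and 4620 CPM to 3978, 3731 and 3869 CPM, 87.0% of the control mean. The SR genes stood at 1196, 1158 and 1147 CPM against 1256, 1179 and 1220 CPM, with overlap between the groups. The muscle and tissue-type regulators went the other way, from 441.1, 413.5 and 445.8 CPM to 560.2, 544.6 and 572.0 CPM, 129% of the control mean and without overlap. As a share of raw counts, the hnRNP genes stood at 0.418% to 0.453% in the controls and 0.378% to 0.406% after the Tug1 gapmer, still apart. The raw share of all members, 0.698% to 0.729% against 0.660% to 0.699%, overlapped. Of the 10 members with the highest mean CPM, 8 fell, 0 rose and 2 (Srrm2 and Hnrnpl) did not pass. Over all tested genes 30.9% fell and 30.8% rose, and no share was taken over genes of similar level. Summed levels are weighted by transcript length, since counts were not divided by length, so they do not order the genes by number of transcripts. Fewer transcripts per cell and fewer cells that express a gene cannot be told apart in such bulk RNA.

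Promoter sequences are shown for the 2 members that rose furthest and the 2 that fell furthest among those with an entry in the RefSeq promoter table of GRCr8. They let the start regions of genes that moved in opposite directions be compared. Of the 43 members, 38 had an entry, and Rbfox2, Tra2a, Hnrnpll, Srrm2 and Rbm20 had none. Each run gives the 250 bases before the annotated start, and capitals mark every match, on either strand, to 6 motifs. These were TATAAA for the TATA box, CCAAT for the CCAAT box, GGGCGG for GC boxes, CGGAAG for ETS sites, CACGTG for E-boxes and TGACGTCA for cyclic AMP response elements.
Srsf11 promoter, chr2:249760259-249760508, minus strand: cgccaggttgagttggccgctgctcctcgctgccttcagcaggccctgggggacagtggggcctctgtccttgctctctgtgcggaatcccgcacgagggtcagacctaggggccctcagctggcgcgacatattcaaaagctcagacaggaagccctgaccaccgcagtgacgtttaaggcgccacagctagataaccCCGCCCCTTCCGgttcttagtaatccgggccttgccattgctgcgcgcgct
Hnrnpc promoter, chr15:27282716-27282965, minus strand: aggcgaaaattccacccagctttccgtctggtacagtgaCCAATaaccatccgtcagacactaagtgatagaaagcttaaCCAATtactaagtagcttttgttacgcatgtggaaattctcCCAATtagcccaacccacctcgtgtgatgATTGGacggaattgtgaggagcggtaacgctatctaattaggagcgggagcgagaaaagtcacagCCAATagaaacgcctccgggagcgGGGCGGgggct
Hnrnpf promoter, chr4:152755418-152755667, plus strand: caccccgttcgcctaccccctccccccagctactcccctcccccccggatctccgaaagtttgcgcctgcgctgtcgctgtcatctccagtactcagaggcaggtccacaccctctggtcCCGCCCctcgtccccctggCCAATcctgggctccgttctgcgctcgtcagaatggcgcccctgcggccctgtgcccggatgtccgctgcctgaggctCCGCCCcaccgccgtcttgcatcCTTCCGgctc
Ptbp1 promoter, chr7:10502958-10503207, minus strand: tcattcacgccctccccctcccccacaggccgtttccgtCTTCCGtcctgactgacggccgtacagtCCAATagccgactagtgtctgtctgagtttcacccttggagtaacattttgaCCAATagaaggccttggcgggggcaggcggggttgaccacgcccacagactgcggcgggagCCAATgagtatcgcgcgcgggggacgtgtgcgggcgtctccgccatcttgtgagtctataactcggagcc

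The Srsf11 window, upstream of the largest rise, had GGGCGG and CGGAAG once each on the reverse strand, next to each other, and 17 CpG dinucleotides. The Hnrnpc window held 5 CCAAT matches and 1 of GGGCGG. Multiple CCAAT matches were not particular to a direction in these 4 genes, as the Ptbp1 window, from a gene that fell, held 3 with 1 of CGGAAG. The Hnrnpf window held GGGCGG in 2 places, CCAAT in 1 and CGGAAG in 1. The 38 member promoters include those of the untested Srsf8 and Srsf12. Over these 38, CCAAT was found in 55.3%, against 35.5% of the 10529 tested genes with an entry and 34.3% of all 27457 promoters. GGGCGG was found in 71.1%, against 56.9% and 32.4%, and CGGAAG in 34.2%, against 26.6% and 14.7%. TATAAA was in 13.2% of member promoters, against 6.84% of tested genes and 13.1% of all promoters, CACGTG in 13.2%, against 8.07% and 5.79%, and TGACGTCA in 0 of 38, against 2.86% and 1.70%. CCAAT matches were in 4 of 9 promoters of members that rose and in 9 of 15 of members that fell, and GGGCGG in 7 of 9 and 10 of 15. The median number of CpG dinucleotides in the window was 22 for both the members and the members that rose, 21 for those that fell and 16 for the tested genes. A match is only a match of letters, and the authors' build was not stated, so the windows describe the annotation of GRCr8.

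The rest of the splicing machinery was compared through 6 lists of other genes, 212 of them tested. Of these, 148 (69.8%) passed in edgeR's quasi-likelihood test, against 61.7% of all genes. By direction, 59 were higher and 89 lower, or 27.8% and 42.0% of the 212, against 30.8% and 30.9% of all genes. The genes of Sm and LSm proteins and of their assembly, which build the protein rings of the snRNPs, leaned lowest, with 19 lower and 3 higher among 29 tested (65.5% and 10.3%, against 30.9% and 30.8% of all genes) and a median log2 fold change of -0.27. With the length correction 18 genes of this list were called, against 22 without it, and their split by direction is not given here. Gemin4 (-0.68, SE 0.0836) and Coil (-0.65, SE 0.149), of the SMN complex and of Cajal bodies, fell furthest, and Gemin2 (0.73, SE 0.138) and Lsm10 (0.47, SE 0.109) rose. The U1, U2 and SF3 list had 15 lower and 8 higher among 32, or 46.9% and 25.0% against the same shares over all genes.

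Larger changes than in any member were found in a few core components. Snrnp70, the U1 protein that SR proteins contact when they recruit U1 to an exon, went from 154 ± 9.12 to 340.0 ± 3.35 CPM (SD, n = 3), or 1.14 on the log2 scale (SE 0.0485, edgeR adjusted p 8.07e-15). Snrpc, another U1 protein, went the other way (-0.54, SE 0.0638), as did the branch point binding protein gene Sf1 (-0.57, SE 0.0496), while the helicase gene Ddx42 rose (0.48, SE 0.0559). Among tri-snRNP and later factors, 20 were lower and 13 higher of 48 (41.7% and 27.1%, against 30.9% and 30.8% of all genes), with log2 fold changes of 1.15 for Ctnnbl1 (SE 0.0806), which binds the Prp19 complex, and 0.92 for Prpf6 (SE 0.0606), a bridge within the tri-snRNP. The lowest were the cyclophilin gene Ppih at -0.75 (SE 0.164) and the late-acting factor gene Slu7 at -0.73 (SE 0.0686).

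Of 27 tested kinases, phosphatases, import factors and partners of SR proteins, 9 rose and 9 fell, 33.3% in each direction and near the 30.8% and 30.9% of all genes. Srpk1, the cytoplasmic kinase that phosphorylates SR proteins for nuclear import, fell from 79.2 ± 4.10 to 46.0 ± 2.14 CPM (SD, n = 3; log2 fold change -0.78, SE 0.0609, edgeR adjusted p 1.60e-10). Its muscle relative Srpk3 rose from 6.36 ± 0.282 to 12.3 ± 1.63 CPM (SD, n = 3; log2 fold change 0.96, SE 0.133, edgeR adjusted p 1.47e-06). Dyrk1b, a kinase of muscle, rose by 0.87 (SE 0.0855), and Rnps1, an SR-related exon junction protein, fell by 0.46 (SE 0.0543) on the log2 scale.

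Of 50 other RNA-binding regulators tested, 21 rose and 16 fell, or 42.0% and 32.0% against 30.8% and 30.9% of all genes. Rbm6 (0.89, SE 0.0824) and the poly(C) binding protein gene Pcbp4 (0.70, SE 0.0576) rose furthest. Fubp1 (-0.90, SE 0.0549), which acts in 3′ splice site choice, and Sfswap (-0.75, SE 0.0710), an SR-like regulator, fell furthest. Of 26 genes of the exon junction complex, mRNA export and nonsense-mediated decay, which removes transcripts with the self-limiting exons of SR and hnRNP genes, 5 rose and 10 fell. That was 19.2% and 38.5%, against 30.8% and 30.9% of all genes. The called share of that list was 57.7%, against 61.7% of all genes. Smg6, the endonuclease of that decay, rose by 0.80 (SE 0.0697) and Nbas by 0.55 (SE 0.0882), while the export cofactor gene Nxt1 (-0.53, SE 0.0825) and the cap-binding protein gene Ncbp2 (-0.46, SE 0.0545) fell.

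**Figure D5:**
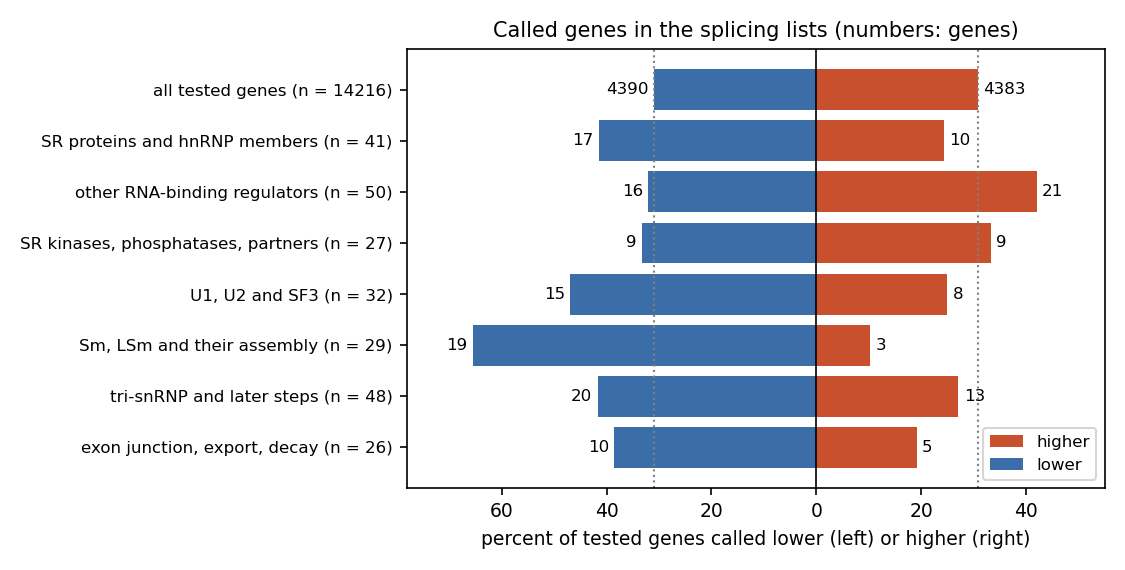
Share of tested genes called lower (left, blue) or higher (right, red) at an adjusted p under 0.05 in edgeR's quasi-likelihood test, for all tested genes, the SR protein and hnRNP members and 6 lists of other splicing genes, with gene numbers beside the bars and dotted lines at the shares over all genes. The Sm and LSm list has 19 genes lower and 3 higher.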

How the data were processed

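Messenger RNA was sequenced in 6 H9c2 libraries, built with a strand-specific kit and poly-A selection from 500 ng RNA, per the labels' protocols. The deposited table gives counts for each gene symbol in whole numbers, 1 column per library, without scaling or pooling as far as the values show. FastQC 0.11.7, fastp 0.14.1 and STAR 2.5 are named in the submitters' processing notes. The counting tool, genome build, annotation, strand setting and treatment of shared reads are not given in the sources used here. The table held 40456 genes and 0 unnamed entries.

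The count model was edgeR 4.0.16 in R 4.3.3: expression filter (minimum count 10, minimum total 15), TMM scaling, and the two-sided quasi-likelihood test on all 6 libraries with Benjamini-Hochberg adjustment over 14216 genes, called at an adjusted p under 0.05. Group values are mean CPM ± sample SD, and a positive log2 fold change means higher after the Tug1 gapmer. At this depth 1 CPM was 12.9 to 13.8 counts. Paralog ratios used a pseudocount of 0.5 and an exact permutation test. The length correction used offsets from a lowess curve (span 0.3) fitted in each library to genomic length, taken from RefSeq's GRCr8 gene table, over 13084 genes.

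The members were chosen by symbol, and they, the lists, pairs and alternatives were set with earlier results of these data known. Values in every library are given for up to 3 highest and 3 lowest called members of each role, for members with the most counts and for pairs with the largest ratio differences, and of each other list the 2 highest and 2 lowest called genes are named. Alternatives were DESeq2 size factors, library totals, DESeq2's Wald test (DESeq2 1.42.0), no filter, the replicate number as a block, the length correction with and without the block, a pseudocount of 2 for the ratios, and each library left out in turn.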

Additional observations from a re-analysis of the deposited data

How the results depend on the processing

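The count of changed members ran from 25 to 29 over the alternatives (25 to 27 with 1 library fewer). All tested genes gave 7876 to 8987 calls (8128 to 8410 with 1 library fewer), and the other splicing lists gave 134 to 148. Without a filter 26059 genes were tested and 34.5% were called. The number of pairs whose ratios did not overlap ran from 13 to 16, and leaving out a library could only keep or raise it. The shared numbers gave no pairing, since same-numbered libraries had deviations correlated at -0.0053, 0.0298 and 0.0270 for numbers 1 to 3. With the number as a replicate block, 28 members and 8848 genes were called, and Hnrnph3 passed as higher (0.16, adjusted p 0.0438). The length correction with the block gave 9 hnRNP genes lower and 6 higher.

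The median log2 fold change of the members was 0.0103 with library totals, where that of all tested genes went from 0.0043 to 0.0568, and lay between -0.0630 and -0.0091 across the leave-outs, nearest to 0 without Tug1 replicate 2. Of 41 members, 23 kept their direction and call in all 13 alternatives. Over 533 combinations of member and alternative, 18 were weaker, 11 stronger and 28 reversed, and apart from that shift the cause was not tested. With the length correction, alone and with the block, the sign turned for Mbnl1 (-0.2256 and -0.2265), Celf1 (-0.0241 and -0.0243), Hnrnpr (-0.0721 and -0.0681), Hnrnpab (0.0182 and 0.0153), Srsf2 (0.0979 and 0.0996), Srsf9 (0.1043 and 0.1061) and Hnrnpdl (0.1053 and 0.1045). Library totals, with that shift of the all-gene median, turned the near-zero values of Srsf9 (0.0377), Hnrnpdl (0.0383) and Hnrnpd (0.0103), and no filter turned Hnrnpr (-0.0031). Leaving out a library turned Srsf10 (-0.0164 without Tug1 replicate 3, -0.0012 without control replicate 3, range up to 0.0464), Hnrnpr (-0.0305 without Tug1 replicate 3, -0.0462 and -0.0552 without control replicates 1 and 2, range up to 0.1297), Srsf9 (0.0057 and 0.0001 without Tug1 replicates 2 and 3, 0.0491 without control replicate 2, range down to -0.0838) and Hnrnpdl (0.0377 without Tug1 replicate 2, 0.0167 without control replicate 1, range down to -0.0553). Among these genes only Celf1 had been called. Depth limits Rbm20, with 18 to 43 counts per library.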
